A study of Mus musculus with 22 samples.

Results

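The aquaporin family was examined in peak lists from mpkCCD cells for a pair of transcription factors, CREB1 and C/EBP beta. All 10 genes fixed by name (Aqp1, Aqp2, Aqp3, Aqp4, Aqp5, Aqp6, Aqp7, Aqp8, Aqp9 and Aqp11) were found among the 21631 protein-coding genes of the annotation, at 7 separate loci. For each gene, peaks inside it or with a centre within 200 kb of it were collected from the 4 deposited lists. The lists came from chromatin immunoprecipitation followed by sequencing (ChIP-seq), in which DNA bound by a factor is recovered with an antibody and read. The groups were CREB1 after dDAVP (4 samples), CREB1 after vehicle (4 samples), C/EBP beta after dDAVP (2 samples) and C/EBP beta after vehicle (2 samples), with 10 input samples that had no antibody. The dDAVP groups received 0.1 nM of this agonist of the vasopressin V2 receptor for 30 min and the vehicle groups its solvent. All groups were grown on permeable supports until confluent and then kept without serum and hormones for 24 h. The line is a single clone (clone 11) of mouse cortical collecting duct, and since no RNA was measured its identity was not checked against markers.

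Aquaporins are membrane channels that let water pass, and some of them (the aquaglyceroporins) also let glycerol pass. In principal cells of the collecting duct, vasopressin acts through the V2 receptor, cAMP and protein kinase A to move aquaporin-2 to the apical membrane and, over a longer time, to raise Aqp2 transcription. Water leaves the cell through aquaporin-3 and aquaporin-4 in the basolateral membrane. CREB1 binds cAMP response elements (CREs), and C/EBP beta is a leucine zipper factor of metabolic, stress and inflammatory gene programs.

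The CREB1 lists held 406 peaks after dDAVP and 785 after vehicle, and the C/EBP beta lists held 2401 peaks after dDAVP and 209 after vehicle. Each list is 1 value per group with no replicate error and no known read depth, so treatments are set side by side and not tested. A missing peak means that none was called, and the factor may still have been bound.

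No peak of any list lay inside an aquaporin gene, as peaks did in 0.966% (CREB1 dDAVP), 1.89% (CREB1 vehicle), 4.87% (C/EBP beta dDAVP) and 0.416% (C/EBP beta vehicle) of all protein-coding genes. The closest was a C/EBP beta peak of 253 bp in the dDAVP list, at chr15:99584846-99585098 on mm10, in the space between Aqp2 and Aqp5. Its deposited score was 227. Aqp2 lies on the plus strand from 99579056 to 99584545, so the peak centre was 427 bp past the downstream end of the gene and 5916 bp after its start site. Aqp5, the water channel of salivary, lacrimal and airway gland cells, follows on the same strand from 99591028 to 99594829, after a gap of 6482 bp. The same peak was thus centred 6056 bp upstream of the Aqp5 start site. Aqp6, an anion-permeable channel of intracellular vesicles in intercalated cells, spans 99598468 to 99605478, and the peak was 13.5 kb upstream of that span, and centred at -16.2 kb from its RefSeq start site. These 3 genes therefore share 1 site and do not give 3 separate observations.

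**Figure D1:**
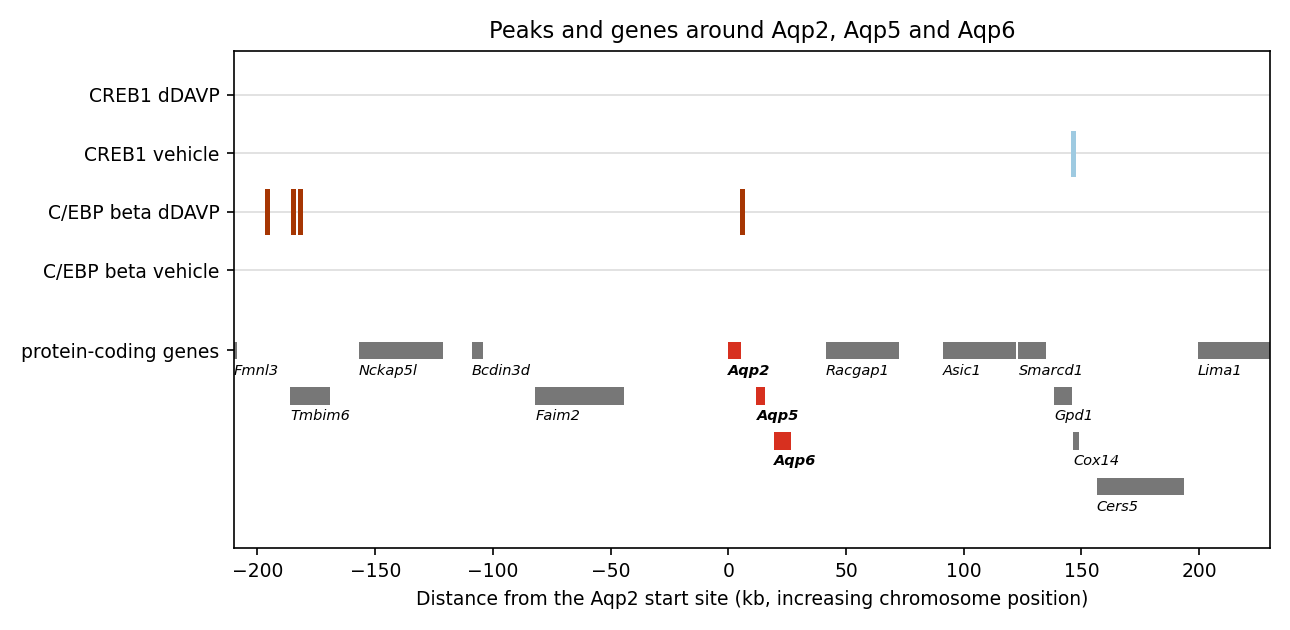
Map of the chromosome 15 locus, with distance from the Aqp2 start site (kb) on the horizontal axis, 1 row of peak positions per list and protein-coding genes as boxes (aquaporins in red, peaks drawn wider than scale). The C/EBP beta dDAVP list has a peak 5.92 kb after the Aqp2 start site and 3 peaks 182 to 196 kb before the gene; the CREB1 vehicle list has 1 peak at Cox14, and the CREB1 dDAVP and C/EBP beta vehicle rows are empty.

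A peak just past the downstream end of a gene was uncommon in this list. Of 17274 protein-coding genes with a known strand, 24 had a C/EBP beta dDAVP peak centred outside the gene within 1 kb past its downstream end (0.139%), Aqp2 among them. Within 1 kb before the start, 249 genes did (1.44%). This division by strand was chosen after the position of the Aqp2 peak was known, and the shares describe the list. In all, 6.01% of protein-coding genes had a C/EBP beta dDAVP peak as near as Aqp2 had, counting peaks inside genes as distance 0.

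The other lists had nothing close to Aqp2. The nearest C/EBP beta peak of the vehicle list was 2.66 Mb away, the nearest CREB1 peak of the dDAVP list 504 kb away, and the nearest CREB1 peak of the vehicle list 141 kb away. Genes with a peak as near made up 38.4%, 26.5% and 21.6% of all protein-coding genes in these lists, so distances of this size were common. The CREB1 vehicle peak, chr15:99725391-99725631, was centred 107 bp before the start of Cox14, an assembly factor of cytochrome c oxidase, beyond Racgap1, Asic1, Smarcd1 and Gpd1.

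The start region of Aqp2 is shown because a CRE in the Aqp2 promoter is the textbook element for its response to cAMP; whether the match below is that element was not tested. RefSeq gives the window chr15:99578806-99579105 (GRCm38.p6, plus strand), from 250 bases before to 50 bases after the start site. Capitals mark the only match to the short CRE core TGACG, found on the minus strand as CGTCA with its first base at -211.
Aqp2 start region: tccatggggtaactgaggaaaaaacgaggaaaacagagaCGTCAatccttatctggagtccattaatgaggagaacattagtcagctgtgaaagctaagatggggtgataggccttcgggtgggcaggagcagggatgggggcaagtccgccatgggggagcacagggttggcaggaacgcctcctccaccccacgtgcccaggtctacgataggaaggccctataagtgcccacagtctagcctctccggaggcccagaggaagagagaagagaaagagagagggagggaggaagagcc

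The full CRE TGACGTCA was not in that window, nor were the C/EBP palindrome TTGCGCAA, the looser C/EBP core TTNNGNAA or the composite site TGATGCAA, searched on both strands. Windows of the same length matched TGACG in 23.8% of 21045 cases, TGACGTCA in 2.26%, TTGCGCAA in 0.223%, TTNNGNAA in 37.4% and TGATGCAA in 0.851%. TGACG lies inside TGACGTCA, so these counts overlap. Among windows touched by a CREB1 peak, 90.0% of 402 in the dDAVP list and 85.5% of 779 in the vehicle list held TGACG. In the other direction, 7.22% of the windows with TGACG were touched by a CREB1 dDAVP peak and 13.3% by a CREB1 vehicle peak. The Aqp2 window thus held letters found in most CREB1-covered start regions, and like most windows with those letters was not covered by a CREB1 peak.

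Among the 9 aquaporin genes with a RefSeq start window, Aqp2 alone held TGACG and 0 held TGACGTCA. TTNNGNAA was found in windows of 3 genes. In Aqp1 it occurred on the minus strand in overlapping matches, which read TTTCCCAA and TTCCCAAA on the strand of the gene. In Aqp7 it occurred as TTCTGGAA and in Aqp9 as TTTGGCAA, on the strand of the gene. No C/EBP beta peak covered any of these windows. Such cover was rare in general. Of all windows with TTNNGNAA, 2.31% were touched by a C/EBP beta dDAVP peak and 0.343% by a C/EBP beta vehicle peak.

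Another 3 C/EBP beta dDAVP peaks lay within 200 kb of Aqp2, all upstream and all nearest to Tmbim6, which encodes an inhibitor of cell death in the ER membrane. The one with the highest score, 559, was centred 196 kb before Aqp2 and 9843 bp from Tmbim6. The others were inside Tmbim6, 185 kb and 182 kb before Aqp2, with scores of 160 and 101. Aqp2 thus had 4 C/EBP beta dDAVP peaks in its window, a number that 2.50% of protein-coding genes reached or passed, while the mean was 0.732. Aqp5 had 3 of these peaks in its window and Aqp6 had 1. The 4 peaks fell into a Tmbim6 group and the single peak between Aqp2 and Aqp5, with Nckap5l, Bcdin3d and Faim2 between them.

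Aqp9, an aquaglyceroporin best known from liver, had the second closest independent site. It lies on the minus strand of chromosome 9 from 71110659 to 71167849, between Lipc and Aldh1a2. A C/EBP beta dDAVP peak at chr9:71174308-71174672 was centred 6641 bp upstream of the gene, and at -11.2 kb from the nearer RefSeq start site. Its score of 435 was higher than 79.5% of the list, against 57.1% for the peak at Aqp2. The CREB1 lists had no peak closer than 5.76 Mb after dDAVP and 1.71 Mb after vehicle, and the nearest C/EBP beta vehicle peak was 1.67 Mb away.

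Aqp1, the constitutive water channel of the proximal tubule and descending thin limb, had 1 site in its window. A C/EBP beta dDAVP peak with a score of 201, chr6:55175034-55175317, was centred 161 kb upstream of Aqp1 and 185 bp before the start of Inmt, an N-methyltransferase gene. A peak as near occurred in 38.5% of genes. CREB1 peaks were 3.87 Mb away in both lists, and the nearest C/EBP beta vehicle peak was 15.4 Mb away. The neighbours of Aqp1 are Mindy4 and Ghrhr.

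Aqp3 and Aqp7, both aquaglyceroporins, are neighbours on the minus strand of chromosome 4, 44486 bp apart, at 41092724 to 41098183 and 41033074 to 41048237. Aqp7 was the aquaporin gene closest to a CREB1 peak in both lists. One CREB1 site was found in both treatments, 203 bp wide after dDAVP (chr4:40970784-40970986) and 321 bp wide after vehicle (chr4:40970724-40971044). It was 62.2 kb from Aqp7 and 122 kb from Aqp3, on the downstream side of both, and 21 bp (dDAVP) and 22 bp (vehicle) before the start of Nfx1, which encodes an X-box binding protein. A second CREB1 peak, chr4:41275144-41275459, was called after vehicle but not after dDAVP. It lay 177 kb upstream of Aqp3, centred at -166 bp from a start site of Ubap2, which encodes a ubiquitin-associated protein. The CREB1 vehicle list held 785 peaks against 406 after dDAVP. The share of all its peaks that were missing after dDAVP was not computed. Absence from the dDAVP list is therefore not shown to be particular to the Ubap2 site or the Cox14 site. Of protein-coding genes, 7.85% had a CREB1 dDAVP peak and 14.0% a CREB1 vehicle peak as near as Aqp7 had.

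The CREB1 peaks near aquaporin genes all overlapped a RefSeq start window of another gene. This was not particular to them. The 406 peaks of the CREB1 dDAVP list touched 402 start windows, and the 785 of the vehicle list touched 779. A peak can touch more than 1 window, so these are not shares of peaks. The sequences at the peaks near aquaporin genes are given because they show the CRE letters that these windows share with Aqp2. They come from GRCm38.p6, on the strand of the gene named, and capitals mark TGACG or its reverse CGTCA. The Nfx1 run is the whole dDAVP peak on the plus strand, the Cox14 run is the whole vehicle peak on the plus strand, and the Ubap2 run is the part of the vehicle peak inside the window (chr4:41275144-41275385, minus strand).
Nfx1: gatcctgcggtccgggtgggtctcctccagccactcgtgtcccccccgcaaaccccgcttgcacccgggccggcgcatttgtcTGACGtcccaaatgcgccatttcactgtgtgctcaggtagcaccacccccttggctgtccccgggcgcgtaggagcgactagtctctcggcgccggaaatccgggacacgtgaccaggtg
Cox14: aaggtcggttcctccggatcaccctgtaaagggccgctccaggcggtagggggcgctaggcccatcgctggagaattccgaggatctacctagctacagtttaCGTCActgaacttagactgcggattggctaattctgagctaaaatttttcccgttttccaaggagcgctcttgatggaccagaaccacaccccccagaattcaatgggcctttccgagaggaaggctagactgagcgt
Ubap2: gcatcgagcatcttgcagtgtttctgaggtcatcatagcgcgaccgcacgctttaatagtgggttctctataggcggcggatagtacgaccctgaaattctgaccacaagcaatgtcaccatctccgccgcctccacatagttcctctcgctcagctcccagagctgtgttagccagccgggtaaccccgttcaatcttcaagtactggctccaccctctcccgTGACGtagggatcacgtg

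Each of these 3 CREB1 runs held TGACG 1 time and none held TGACGTCA. The C/EBP beta peak near Aqp1 also reached into a start window, that of Inmt. The covered part, chr6:55175034-55175240 on the minus strand, held none of the motifs searched and is printed for comparison.
Inmt: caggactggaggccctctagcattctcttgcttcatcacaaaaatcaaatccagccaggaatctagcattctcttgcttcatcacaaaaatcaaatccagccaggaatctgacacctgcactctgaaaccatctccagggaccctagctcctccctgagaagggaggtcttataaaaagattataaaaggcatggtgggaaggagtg

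C/EBP beta sites were farther from Aqp3 and Aqp7. A dDAVP peak with a score of 169, inside B4galt1 (a galactosyltransferase gene), lay 186 kb from Aqp7 and 245 kb from Aqp3, just inside the 200 kb window for Aqp7 and outside it for Aqp3. The nearest C/EBP beta vehicle peak was 877 kb from Aqp7 and 936 kb from Aqp3.

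**Figure D2:**
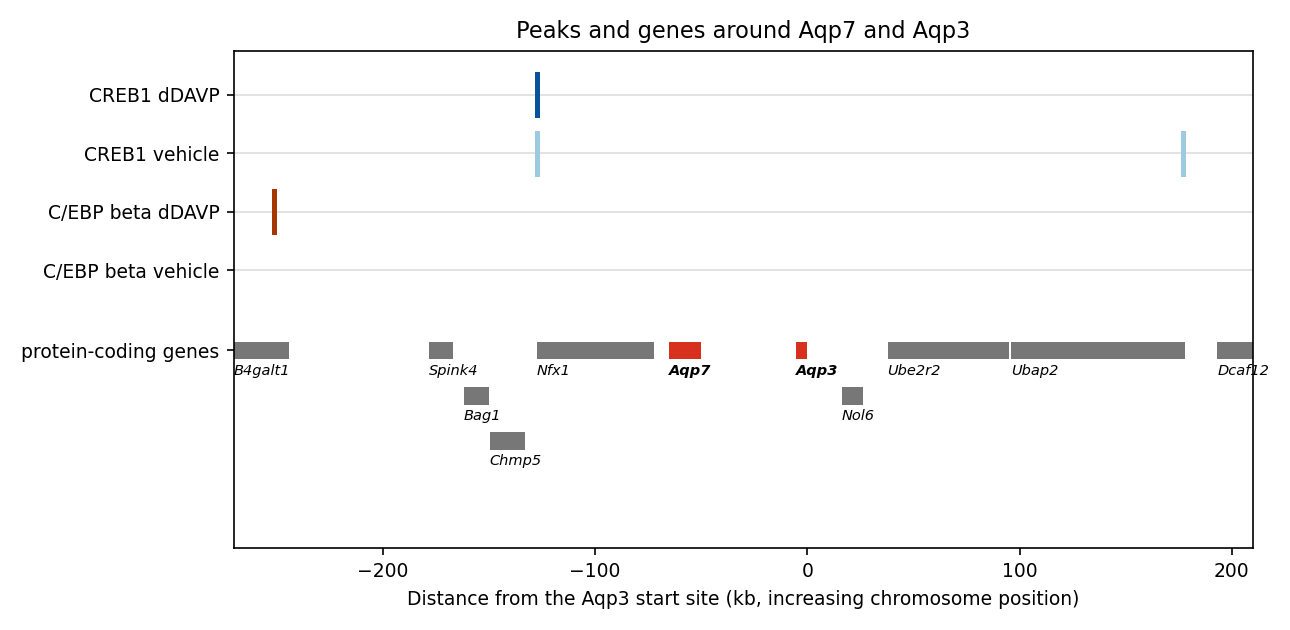
Map of the chromosome 4 locus, with distance from the Aqp3 start site (kb) on the horizontal axis, 1 row of peak positions per list and protein-coding genes as boxes (aquaporins in red, peaks drawn wider than scale). The CREB1 peak at Nfx1 is in the dDAVP and vehicle rows, the peak at Ubap2 in the vehicle row alone, and the C/EBP beta dDAVP peak lies in B4galt1.

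Aqp4, Aqp8 and Aqp11 had no peak of any list within 200 kb. Aqp4, the other basolateral water channel of principal cells, lies on chromosome 18 between Kctd1 and Chst9. Its nearest peaks were 4.53 Mb (C/EBP beta dDAVP), 18.8 Mb (C/EBP beta vehicle), 45.1 Mb (CREB1 dDAVP) and 22.2 Mb (CREB1 vehicle) away, and 91.2% to 96.1% of genes had a peak as near. Aqp8, a channel of digestive epithelia, lies between Lcmt1 and Zkscan2, and its nearest peak was a C/EBP beta dDAVP peak 1.57 Mb away. Aqp11, a channel of the endoplasmic reticulum whose loss causes kidney cysts in mice, lies between Clns1a and Pak1. Its nearest site, 1.43 Mb away, was in both C/EBP beta lists, with a score of 974 after dDAVP and 107 after vehicle. The median score was 1104 over the dDAVP peaks that overlapped a vehicle peak, and 131 over the vehicle list. Scores have no stated scale, and the change at this site was not tested.

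**Figure D3:**
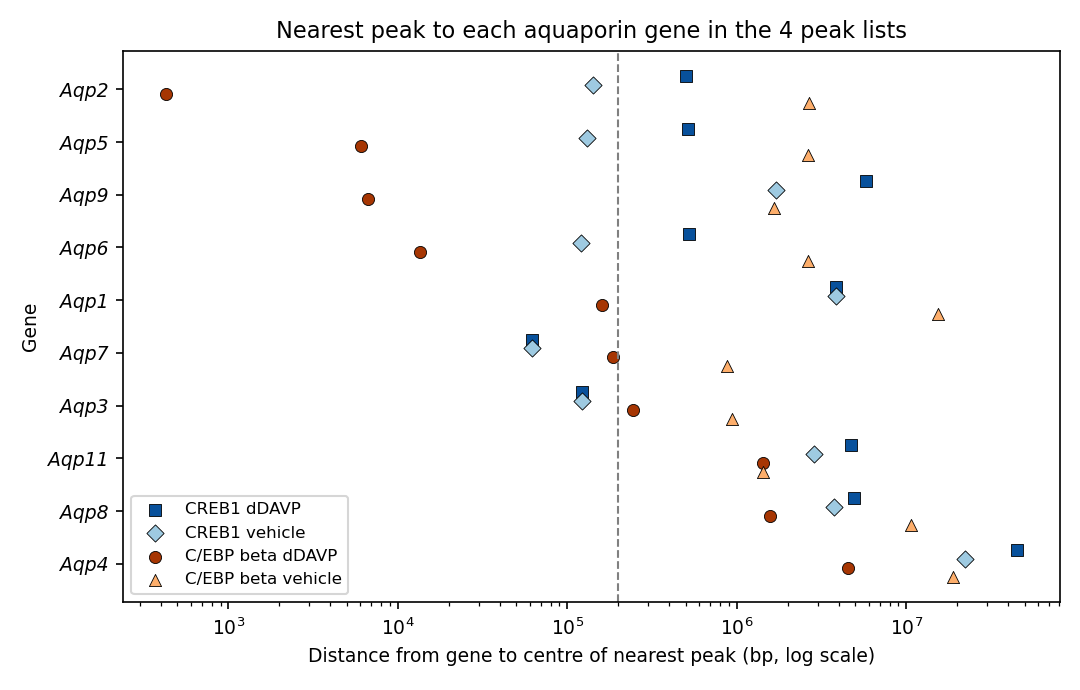
Distance from each aquaporin gene to the centre of the nearest peak (bp, log scale), with 1 marker per list and a dashed line at 200 kb. Genes are ordered by the C/EBP beta dDAVP distance, which runs from 427 bp at Aqp2 to 4.53 Mb at Aqp4.

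Counted over the family, 6 of 10 aquaporin genes had a C/EBP beta peak within 200 kb in the dDAVP list, where 42.8% of all protein-coding genes did, and 0 of 10 in the vehicle list, where 5.85% did. CREB1 peaks were within 200 kb of 2 of 10 in the dDAVP list, against 15.6% of all genes, and of 5 of 10 in the vehicle list, against 25.9%. Because neighbours share sites, the 6 genes near a C/EBP beta peak stand for 4 loci and the 5 genes near a CREB1 peak for 2 loci. Within 50 kb the C/EBP beta dDAVP count was 4 (Aqp2, Aqp5 and Aqp6 through the same peak, and Aqp9), against 19.6% of all genes. The C/EBP beta vehicle count was then 0 against 2.04%, and both CREB1 counts were 0, against 6.97% after dDAVP and 12.5% after vehicle. Only Aqp2 had a C/EBP beta dDAVP peak within 5 kb, as 7.83% of all genes did, and it was also within 1 kb, as in 6.35%. The other lists had 0 of 10 within 1 kb, against 2.3% of all genes for CREB1 after dDAVP, 4.34% for CREB1 after vehicle, and 0.624% in the C/EBP beta vehicle list. Widening the window to 500 kb added Aqp3 for C/EBP beta after dDAVP (7 of 10, against 64.3% of all genes). The counts at 500 kb were otherwise those at 200 kb: 0 for C/EBP beta after vehicle (12.1% of all genes), 2 for CREB1 after dDAVP (26.3%) and 5 for CREB1 after vehicle (40.9%).

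**Figure D4:**
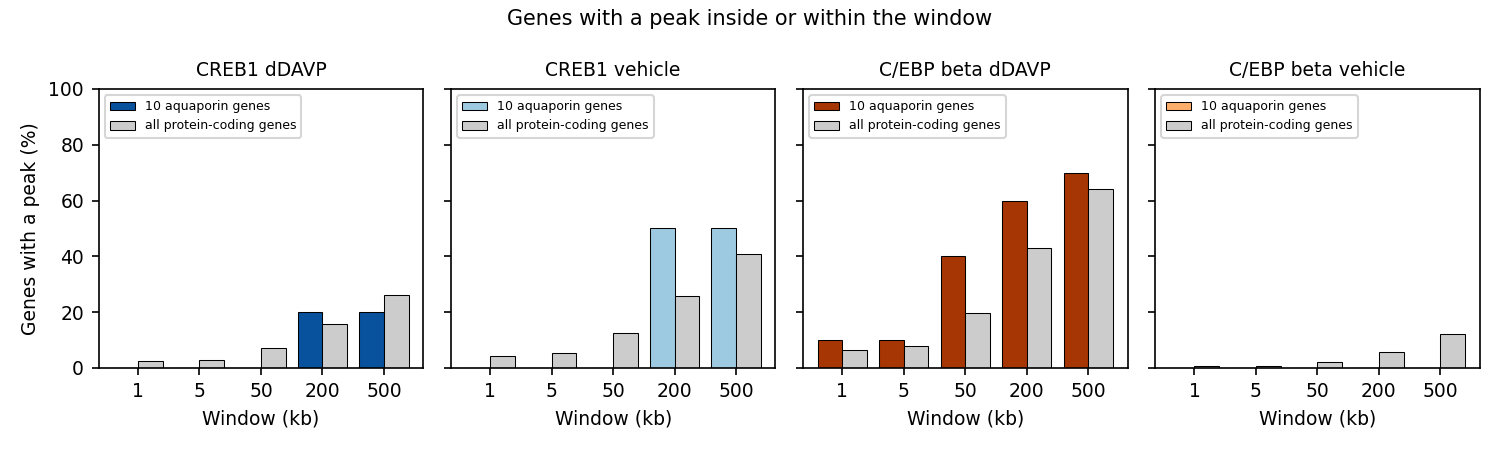
Share of genes (%) with a peak inside them or within 1, 5, 50, 200 or 500 kb, for the 10 aquaporin genes (coloured bars) and all protein-coding genes (grey bars), in 1 panel per list. The aquaporin bars begin at the 1 kb window in the C/EBP beta dDAVP panel and at the 200 kb window in both CREB1 panels, and no bar is seen for C/EBP beta after vehicle.

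The median distance to the nearest C/EBP beta peak was 0.173 Mb after dDAVP and 2.64 Mb after vehicle over the 10 genes, against 0.272 Mb and 4.17 Mb over all protein-coding genes. For CREB1 the medians were 2.19 Mb after dDAVP and 0.927 Mb after vehicle, against 1.59 Mb and 0.725 Mb over all genes. The distances were shorter in whichever list was longer, for the aquaporins and for all genes.

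The 7 distinct C/EBP beta dDAVP peaks near aquaporin genes had scores of 101 to 559, around the list's median of 197, and 0 of the 7 overlapped a vehicle peak. Their scores were in a range where few peaks were found in both treatments. The 209 dDAVP peaks that overlapped a vehicle peak had scores of 273 or more, with a median of 1104. When the list was divided by score into 10 bins of near equal size, the bin with the Aqp2 peak held scores of 197 to 242, and there 0 of 240 peaks overlapped a vehicle peak. In the bin with the strongest Tmbim6 peak (435 to 720), 35 of 240 did (14.6%), and in the top bin 167 of 240 did (69.6%). The Aqp9 peak, with a score of 435, was on the border with the bin below (317 to 435), where 6 of 240 did (2.5%). The absence of the Aqp2 peak from the vehicle list was thus shared with every dDAVP peak scoring below 273, of which there were 1547.

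**Figure D5:**
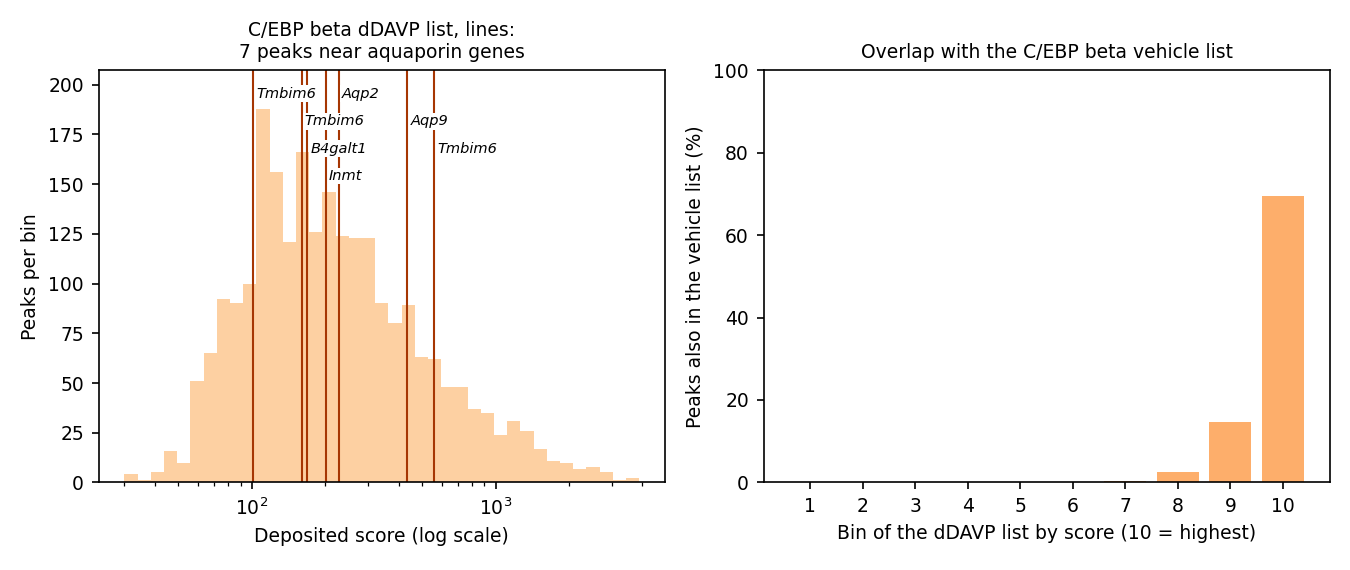
Left, number of C/EBP beta dDAVP peaks by deposited score (log scale), with lines at the 7 peaks near aquaporin genes, labelled by nearest gene. Right, share of peaks (%) that overlap a C/EBP beta vehicle peak in each of 10 bins of the dDAVP list by score, which is 69.6% in the top bin and 0% in the 6 lowest bins.

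Genes that act on aquaporin-2 were described from 3 lists. These lists were chosen with earlier results of these data known, so their shares are descriptions and were not tested. Of 27 genes of vasopressin signalling, 0 had a CREB1 peak inside or within 5 kb after dDAVP (2.72% of all genes did), and 1 did after vehicle (5.17%). That gene was Prkaca, the catalytic subunit of protein kinase A, with a peak 113 bp before its start. C/EBP beta peaks after dDAVP were in 2 of 27 (7.41%, against 7.83%), namely Mylk, the myosin light chain kinase, and Pde4d, a cAMP phosphodiesterase. After vehicle 0 of 27 had one, against 0.781%. The Mylk and Pde4d peaks were inside these genes, 31747 bp and 576772 bp from the nearest RefSeq start site. Neither Avpr2, the V2 receptor, nor Gnas or Adcy6 had a peak in these windows.

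Of 42 genes of aquaporin-2 trafficking and turnover, 10 had a C/EBP beta peak inside or within 5 kb after dDAVP (23.8%, against 7.83% of all genes) and 0 after vehicle (against 0.781%). The closest with a known start site was Vamp8, a vesicle SNARE, at 36 bp with a score of 360. Peaks lay inside Ezr (an actin linker), Lrba, Myh9 (non-muscle myosin), Nedd4l (a ubiquitin ligase) and Sipa1l1, with scores of 136 to 916. From the nearest RefSeq start site they were 2889 bp (Ezr), 9937 bp (Myh9), 64765 bp (Sipa1l1) and 226710 bp (Lrba) away. The Nedd4l peak was 73222 bp from the closer end of that gene. A peak 1613 bp from Stub1, which encodes a ubiquitin ligase of the chaperone system, had a score of 284. CREB1 peaks were at Rab5a, a GTPase of early endosomes, in both treatments, 15 bp from its start after dDAVP and 55 bp after vehicle. It was the only gene of this list in the CREB1 dDAVP list (2.38%, against 2.72% of all genes). After vehicle there were 6 (14.3%, against 5.17% of all genes): Rab5a, Napa, Rab11a, Vamp3, Rab3a and Vamp2. The site near Vamp2 is 2625 bp from that gene.

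Of 59 candidate regulators of Aqp2 transcription, 16 had a C/EBP beta peak inside or within 5 kb after dDAVP (27.1%, against 7.83% of all genes) and 4 after vehicle (6.78%, against 0.781%). Those 4 were Elf1, Ehf, Fosl2 and Rxra. Ehf and Elf1 are ETS factors, and Fosl2 is an AP-1 subunit whose peak scored 1666 after dDAVP and 182 after vehicle. Such scores have no stated scale. Their medians were 1104 over the dDAVP peaks that overlapped a vehicle peak and 131 over the vehicle list. Peaks after dDAVP also lay inside Cebpb, the gene of C/EBP beta itself, and Creb3l1, which encodes a CREB-like factor, scoring 101 and 71. The Cebpb peak was 1258 bp from the start site of that gene, and neither gene had a peak within 5 kb after vehicle. Atf3 (31 bp, score 434), Fosl1 (68 bp, score 145) and Esrra (31 bp from a gene end, score 223) had a peak after dDAVP and not after vehicle. No dDAVP peak scoring below 273 overlapped a vehicle peak. In the score bin that held the Atf3 peak (317 to 435), 6 of 240 did. CREB1 peaks were near 3 of 59 after dDAVP (5.08%, against 2.72% of all genes), Kat5, Fos and Crebbp. After vehicle they were near 8 (13.6%, against 5.17%), those 3 with Creb1, Junb, Sp1, Esrra and Elf1. Not all were at start sites. The Crebbp peak lay outside the gene, 135537 bp (dDAVP) and 135551 bp (vehicle) from its RefSeq start site. The vehicle peaks of Esrra and Elf1 were 12021 bp and 71670 bp from the nearest one. Long genes have more room for a peak, and these shares were not adjusted for length. Nor do they measure an excess, since the lists were chosen with earlier results known.

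By the 4 distances to the nearest peak, the genes most like Aqp2 were Hexim1, Lman2 and H3c7, with Euclidean distances of 0.397, 0.459 and 0.504 over the 4 log10 values. They had a C/EBP beta dDAVP peak 337 bp, 188 bp and 537 bp away, against 427 bp for Aqp2. The C/EBP beta vehicle distances were 4460 kb, 2450 kb and 4980 kb, against 2660 kb. For CREB1 they were 831 kb, 656 kb and 216 kb after dDAVP, against 504 kb, and 235 kb, 260 kb and 216 kb after vehicle, against 141 kb. These genes were chosen by the same 4 distances, so their likeness to Aqp2 follows from the choice.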

How the data were processed

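ChIP-seq of CREB1 and C/EBP beta was carried out in mpkCCD cells after 30 min of 0.1 nM dDAVP or vehicle. BWA, SAMtools, MACS2, bedtools and the build mm10 appear in the submitters' processing notes without roles. The step that combined replicates into 1 list per group is not given in the sources used here. Scores deposited for C/EBP beta peaks have no stated scale and belong to replicate 1, per the peak names in the deposited lists, which carry a bandwidth of 300, 1 duplicate and q of 0.01. CREB1 lists held positions alone. Depth is unknown. Genes came from a RefSeq table of GRCm38.p6, the assembly of mm10. Strand and start windows of 300 bases came from a RefSeq table that matched 17274 of 21631 protein-coding genes and 9 of 10 aquaporin genes.

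Positions count from 1. Distances were measured between a peak's centre and the closer end of a gene, and were 0 inside it. Sites overlapping by 1 bp were the same. Distances were computed in Python 3.11.15 with pandas 2.3.3 and checked on simulated peaks. No test was made, since each group had 1 list. All aquaporin genes, their neighbours and the gene nearest to each peak were named, with up to 6 genes per gene list and peak list, closest first and in alphabetical order where equal; others named were chosen after their values were seen. The genes and lists were chosen with earlier results of these data known. Alternatives were the window, the peak edge, the upper 50% of scores, shorter lists and the overlap.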

Additional observations from a re-analysis of the deposited data

How the results depend on the processing

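Of 24 alternatives over 9 results, 19 left a count within 1.5 times, or a distance within 1.5 times, of the value reported. Some of the 19 could not have moved, so their number is no measure of stability. A narrower window or fewer peaks cannot lower a count of 0, and the peak edge barely alters distances of 141 kb or more. The 5 alternatives that moved a result all lowered a count of aquaporin genes with a peak within 200 kb. With a window of 50 kb the CREB1 counts were 0 after dDAVP, against 2, and 0 after vehicle, against 5. With the CREB1 vehicle list cut by width to the length of the dDAVP list, its count was 2. When only the best scores of the C/EBP beta dDAVP list were kept, as many as the vehicle list has peaks, its count was 0, against 6, and with as many as the CREB1 dDAVP list has it was 1. These cuts leave fewer peaks by construction, and the part of list length in the difference between treatments was not tested. Width is not a measure of strength, and with widths down to 3 bp (C/EBP beta dDAVP) and 32 bp (CREB1 dDAVP) the deposited regions may be parts of peaks. In the upper 50% of scores the C/EBP beta dDAVP count was 5, and the Aqp2 distance was still 427 bp; from the peak edge it was 301 bp. No paired analysis was possible because each group had 1 pooled list and the replicates' own peaks were not analysed here, and for the same reason no replicate was left out. Read depth, which limits how many peaks a list can hold, is unknown.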

Other observations

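The annotation holds a further pair of protein-coding aquaporin genes that were not among the 10. Mip, the lens aquaporin, had its nearest C/EBP beta peak 74.7 kb away after dDAVP and 935 kb away after vehicle, and its nearest CREB1 peak 262 kb away in both lists. Aqp12, a pancreatic aquaporin, had its nearest C/EBP beta peak 162 kb away after dDAVP and 624 kb away after vehicle. Its nearest CREB1 peak was 533 kb away after dDAVP and 467 kb away after vehicle.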
